A study of Mus musculus with 4 samples.

Results

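Matrix-producing tumor cells were cells of subcutaneous LLC tumors that carried transcripts of the tumor marker Rhox5 together with those of the extracellular matrix genes Lum, Islr and Fbn1. They were taken from single-cell RNA sequencing counts as barcodes with at least 2000 unique molecular identifiers (UMIs, 1 per captured RNA molecule), at most 20% mitochondrial UMIs, at least 3 UMIs of Rhox5, no UMI of the leukocyte genes Ptprc and Csf1r, and at least 3 UMIs of Lum, Islr and Fbn1 together. The rule took 4167 cells of 26118 tumor cells, which are cells that meet all its conditions but the last. Among all data these were 4167 of 39972 barcodes past the UMI and mitochondrial limits and of 55805 barcodes in the count tables. The 21951 remaining tumor cells, with 0 to 2 UMIs of the 3 genes, are called other tumor cells.

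LLC (Lewis lung carcinoma) is a mouse lung cancer line, grown here under the skin of C57/BL6N mice of 6 to 8 weeks. The radiation naive group (NT), labelled as mock-treated, was 1 library, for which 3 tumors were pooled. Tumors given 24 Gy as 3 fractions of 8 Gy made up the radiotherapy group (RT), with 1 tumor in each of its 3 libraries, which are called RT1, RT2 and RT3. Tumors were taken at 72 h after radiation or mock treatment. NT has no replicate, so differences between RT and NT are values without a test and every RT library is set against the same NT library.

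The tables held 69667759 UMIs on 10141 barcodes in NT, 78585759 on 15346 in RT1, 108699844 on 14994 in RT2 and 85660188 on 15324 in RT3. They shared 18605 gene symbols, over which all libraries were read. The table of RT2 listed only these 18605 genes, whereas the others listed 32285. Of the barcodes, 547 in NT, 719 in RT1, 712 in RT2 and 707 in RT3 were also present in another library, and 18 of the 4167 matrix cells carried a barcode that was also a matrix cell of another library. Summed over the matrix cells, the libraries held 5006890, 11778188, 19027946 and 8603312 UMIs in the order NT, RT1, RT2 and RT3. This order is kept wherever 4 values are listed, and levels are UMIs scaled to a common total of such sums (CPM).

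The extracellular matrix of connective tissue is laid down mainly by fibroblasts, which secrete fibrillar collagens, proteoglycans that bind and space the fibrils, and the microfibrils on which elastic fibers form. Lum encodes lumican, a small leucine-rich proteoglycan of collagen fibrils, Fbn1 encodes fibrillin-1, the main microfibril protein, and Islr encodes meflin, a surface protein of mesenchymal stromal cells. Rhox5 is an X-linked homeobox gene of the reproductive tract that many mouse tumor lines express, and carcinoma cells with mesenchymal features can transcribe matrix genes themselves.

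Promoters are shown for 2 genes of the matrix group and for 2 genes that were lower in it. Fbn1 is a gene of the rule, Col3a1 encodes the chain of collagen III, Rrm2 encodes a subunit of ribonucleotide reductase and Uhrf1 encodes a chromatin protein that keeps DNA methylation through replication. Each sequence is the RefSeq window of build GRCm38.p6 from 250 bases before to 50 bases after the gene's start, 5′ to 3′ on the gene's strand. The first listed start of each gene is used. Capitals mark matches, on either strand, to the TATA box letters TATAAA, to the CCAAT box core CCAAT, to the GC box letters GGGCGG or to the AP-1 letters TGANTCA. The windows are chr2:125506389-125506688 on the minus strand for Fbn1, chr1:45311288-45311587 on the plus strand for Col3a1, chr12:24708004-24708303 on the plus strand for Rrm2 and chr17:56303087-56303386 on the plus strand for Uhrf1. CCAAT was present in 37.9% of 27025 RefSeq promoters, in 8 of the 9 matched promoters among the 12 genes named below as lower, and in 1 of the 8 matched among the 12 named as higher and the 3 rule genes Lum, Islr and Fbn1. TATAAA was present in 14.2% of all promoters, in 2 of these 8 and in 1 of these 9. GGGCGG was present in 35.9% of all promoters and in 3 of each group, and TGANTCA in 7.93% of all, in 1 of the 8 and in 0 of the 9. Such a match is a description of letters and not a site of binding.
Fbn1: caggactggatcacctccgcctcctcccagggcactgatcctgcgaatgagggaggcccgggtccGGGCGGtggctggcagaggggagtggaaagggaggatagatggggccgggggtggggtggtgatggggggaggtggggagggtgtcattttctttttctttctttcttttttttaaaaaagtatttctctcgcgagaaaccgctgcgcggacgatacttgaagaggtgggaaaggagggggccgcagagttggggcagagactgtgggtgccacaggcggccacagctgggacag
Col3a1: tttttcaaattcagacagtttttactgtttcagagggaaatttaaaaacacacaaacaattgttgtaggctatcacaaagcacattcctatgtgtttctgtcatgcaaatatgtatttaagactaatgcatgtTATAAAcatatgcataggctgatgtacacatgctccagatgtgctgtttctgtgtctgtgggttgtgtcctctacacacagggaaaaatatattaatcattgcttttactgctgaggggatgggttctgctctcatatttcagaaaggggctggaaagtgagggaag
Rrm2: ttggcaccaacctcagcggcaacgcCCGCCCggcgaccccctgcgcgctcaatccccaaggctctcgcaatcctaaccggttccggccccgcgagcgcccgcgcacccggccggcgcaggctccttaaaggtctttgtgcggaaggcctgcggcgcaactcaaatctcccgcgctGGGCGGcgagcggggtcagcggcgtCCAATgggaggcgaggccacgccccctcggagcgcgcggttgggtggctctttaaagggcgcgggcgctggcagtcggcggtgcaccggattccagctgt
Uhrf1: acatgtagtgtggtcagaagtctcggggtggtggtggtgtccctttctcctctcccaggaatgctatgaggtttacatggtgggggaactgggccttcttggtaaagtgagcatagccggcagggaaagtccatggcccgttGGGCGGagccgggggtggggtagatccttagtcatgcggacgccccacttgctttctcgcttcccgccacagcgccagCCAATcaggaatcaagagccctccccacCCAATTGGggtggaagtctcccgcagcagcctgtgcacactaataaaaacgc

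The values that chose the cells are given first, as a description. Lum (ENSMUSG00000036446) was at 215, 742, 348 and 363 CPM in matrix cells of NT, RT1, RT2 and RT3, and at 2.00, 11.3, 4.55 and 6.40 CPM in other tumor cells. Islr (ENSMUSG00000037206) was at 89.9, 86.8, 161 and 109 CPM against 6.01, 10.4, 13.1 and 9.03 CPM. Fbn1 (ENSMUSG00000027204) was at 238, 202, 189.9 and 173 CPM against 22.4, 24.3, 21.7 and 22.7 CPM. The 3 genes varied differently over libraries, since Lum was highest in RT1, Islr in RT2 and Fbn1 in NT. Rhox5 (ENSMUSG00000095180) was at 930.3, 1332, 1123 and 1109 CPM in matrix cells, near its 1137, 1395, 1273 and 1283 CPM in other tumor cells.

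Many matrix cells lay near the limit. Cells with exactly 3 UMIs of the 3 genes numbered 991, or 23.8% of matrix cells, and those with 4 numbered 647, whereas 1784 tumor cells with 2 UMIs, 4266 with 1 and 15901 with 0 fell outside. The median matrix cell held 4 such UMIs in NT, 7 in RT1, 6 in RT2 and 5 in RT3, and the highest held 55, 117, 169 and 72. All 3 genes were detected together in 8.61% of matrix cells of NT, 15.1% of RT1, 22.2% of RT2 and 13.9% of RT3, while 43.0%, 34.1%, 29.0% and 33.0% carried UMIs of 1 gene alone. Matrix cells were also somewhat deeper than other tumor cells, with median UMIs per cell of 9890 against 8263 in NT, 7475 against 6558 in RT1, 9704.5 against 9583 in RT2 and 7994 against 7160 in RT3.

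Matrix cells formed a larger share of tumor cells in each RT library than in NT. Their share was 7.49% of tumor cells in NT (453 of 6050; exact Clopper-Pearson 95% interval 6.84 to 8.18), 20.2% in RT1 (1305 of 6475; 19.2 to 21.2), 25.6% in RT2 (1594 of 6234; 24.5 to 26.7) and 11.1% in RT3 (815 of 7359; 10.4 to 11.8). The RT mean was 18.9% ± 7.32 (SD, n = 3), and the 3 RT shares were 2.69, 3.41 and 1.48 times that of NT. The intervals of the 4 libraries did not overlap, but they cover counting error only, and the spread between NT tumors cannot be read from 1 pooled library. Of all barcodes past the UMI and mitochondrial limits, matrix cells made up 5.71% in NT and 11.5% ± 3.34 (SD, n = 3) in RT. At a higher limit of 10 UMIs of the 3 genes the share was 0.893% in NT whereas the RT libraries reached 6.72%, 6.45% and 2.00%.

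The share with each gene was read again after every tumor cell was thinned to 2000 UMIs, so that depth was equal. With any of the 3 genes it was 11.7% in NT and 25.1%, 25.9% and 16.2% in the RT libraries. Lum accounted for the widest contrast, at 2.53% in NT against 15.0%, 10.7% and 6.43%, whereas Fbn1 was at 7.97% in NT against 11.2%, 12.4% and 8.49% and Islr at 2.63% against 5.31%, 9.79% and 4.36%. For Fbn1 the RT3 share was 1.07 times that of NT. Macrophages and monocytes (at least 3 UMIs of Csf1r and 0 of Rhox5), which should lack these genes, carried a UMI of Lum in 0.800% of cells in NT, 2.17% in RT1, 0.662% in RT2 and 0.321% in RT3 without thinning.

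**Figure D1:**
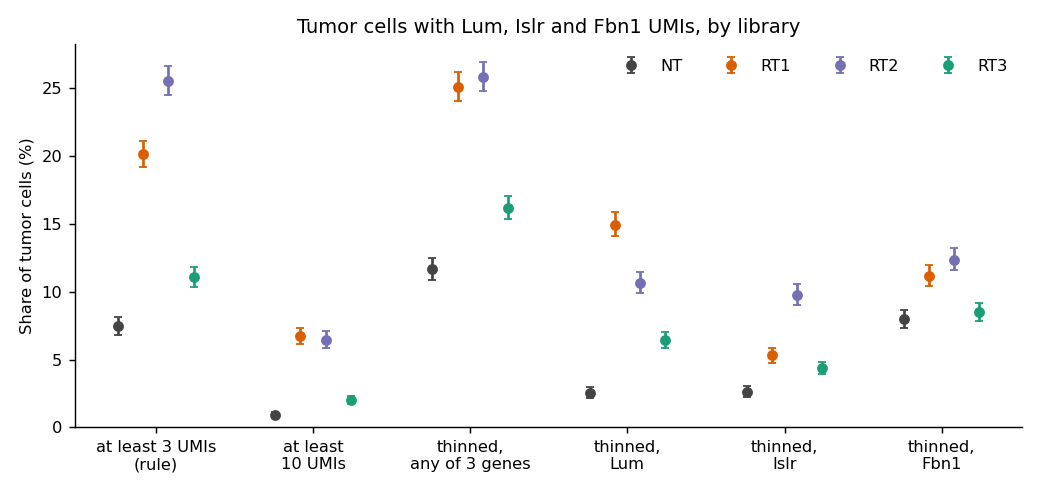
Share of tumor cells (%, vertical axis) with Lum, Islr and Fbn1 UMIs in each library, by the rule, by a limit of 10 UMIs, and with at least 1 UMI after thinning to 2000 UMIs per cell; bars are exact 95% Clopper-Pearson intervals. NT is the lowest library in all 6 settings, RT3 is the lowest of the RT libraries, and the thinned Lum share runs from 2.53% in NT to 15.0% in RT1.

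Shares fell when cells with other stromal transcripts were left out. Without the tumor cells that held any UMI of Dcn, Dpt or Pdgfra, which matrix cells mostly expressed, 1.64% of the remaining 1831 tumor cells were matrix cells in NT, against 2.34% of 1452, 6.67% of 1304 and 1.70% of 1473 in the RT libraries. Under that condition RT3 differed little from NT. Without cells that held any UMI of Col1a1, Col1a2 or Postn, the collagen I and periostin genes of fibroblasts, the shares were 7.40% in NT and 19.98%, 25.1% and 10.8% in RT.

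Of 5 tested cancer-germline and oncofetal genes, 0 were higher and 1, the RNA-binding protein gene Igf2bp1 (log2 fold change -1.68, at under 1 CPM), was lower in matrix cells than in other tumor cells, against 24.3% and 22.6% of all genes tested. The median of the list was -0.04. Hmga2, an oncofetal chromatin gene outside the rule, was at 499, 528, 405 and 537 CPM in matrix cells and at 444, 471, 448 and 514 CPM in other tumor cells, with overlapping ranges (log2 fold change 0.09, SE 0.05, adjusted p = 0.152 by edgeR's quasi-likelihood test). Fibroblasts were taken by Dcn, Col3a1 and low Rhox5, as given below, and Hmga2 was at 356, 397, 134 and 304 CPM in these 364 cells. In 184 fibroblasts required, after the data were seen, to hold at least 10 UMIs of Col1a1 and Col1a2 together, called collagen I fibroblasts, Hmga2 was at 0, 28.7, 29.5 and 29.0 CPM. The latter were few, with 10 cells in NT, 29 in RT1, 66 in RT2 and 79 in RT3. Col1a1, the main chain of collagen I, was at 10.98, 7.39, 26.8 and 30.3 CPM in matrix cells and at 14209, 4249, 16355 and 9588 CPM in the 364 fibroblasts, whose rule did not use it. Postn was at 0, 0.340, 5.20 and 2.32 CPM against 997, 860.02, 238 and 1303 CPM. Both genes were lower in every matrix sum than in any sum of these fibroblasts, although a Col1a1 UMI was present in only 23.1%, 27.4%, 70.7% and 53.6% of the fibroblasts, so that many cells of that rule held no collagen I either. In collagen I fibroblasts Col1a1 was at 34292, 14779, 22363 and 20371 CPM, a level that their selection fixed. Only 21 of the 4167 matrix cells had 10 or more UMIs of Col1a1 and Col1a2, and 199 had any UMI of Col1a1, Col1a2 or Postn.

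**Figure D2:**
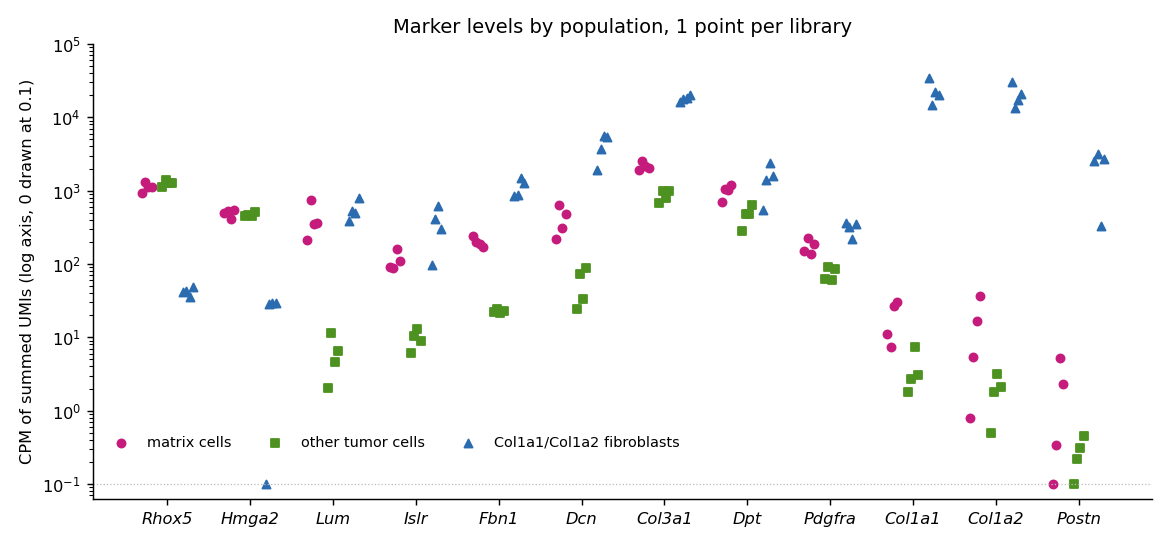
Levels (CPM of summed UMIs, log axis, with 0 drawn at 0.1) of tumor, rule and fibroblast genes in matrix cells, other tumor cells and fibroblasts with at least 10 UMIs of Col1a1 and Col1a2; each point is 1 library. Hmga2 of matrix cells sits with that of other tumor cells, Rhox5 is placed by the rules that chose the cells, Lum, Dcn and Col3a1 lie between the other populations or near the fibroblasts, whose Col1a1 and Col1a2 were fixed by their selection, and Col1a1 stays at or below 30.3 CPM in matrix cells.

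Expression summed by chromosome was also compared, since gains and losses of chromosome arms in a tumor line shift the mean expression of their genes. For each library the log2 ratio of each population to the macrophage sum of that library was averaged over the genes of each of 20 chromosomes (6186 genes). Chromosome 3 averaged 0.37 in matrix cells, 0.40 in other tumor cells, 0.25 in fibroblasts of the rule and 0.09 in collagen I fibroblasts, and chromosome 7 averaged -0.54, -0.52, -0.35 and -0.07. Chromosomes 12 and 14 were alike in this, at 0.36, 0.36, 0.21 and -0.01 and at -0.35, -0.38, -0.26 and -0.05. Over the 20 chromosomes, Pearson's r of matrix cells with other tumor cells of the other libraries was 0.986, 0.991, 0.985 and 0.983. With fibroblasts of the rule in the other libraries it was 0.933, 0.944, 0.947 and 0.964, and with collagen I fibroblasts, the group formed after the data were seen, 0.518, 0.463, 0.478 and 0.496. The fibroblasts of the rule themselves had an r of 0.955, 0.961, 0.866 and 0.875 with other tumor cells of the other libraries, and collagen I fibroblasts one of 0.361, 0.567, 0.442 and 0.456. All of these profiles share the macrophage reference, and chromosomes are not replicates. Chromosome 1 differed most between matrix and other tumor cells, at 0.29 ± 0.03 against 0.20 ± 0.04 (SD, n = 4 libraries).

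**Figure D3:**
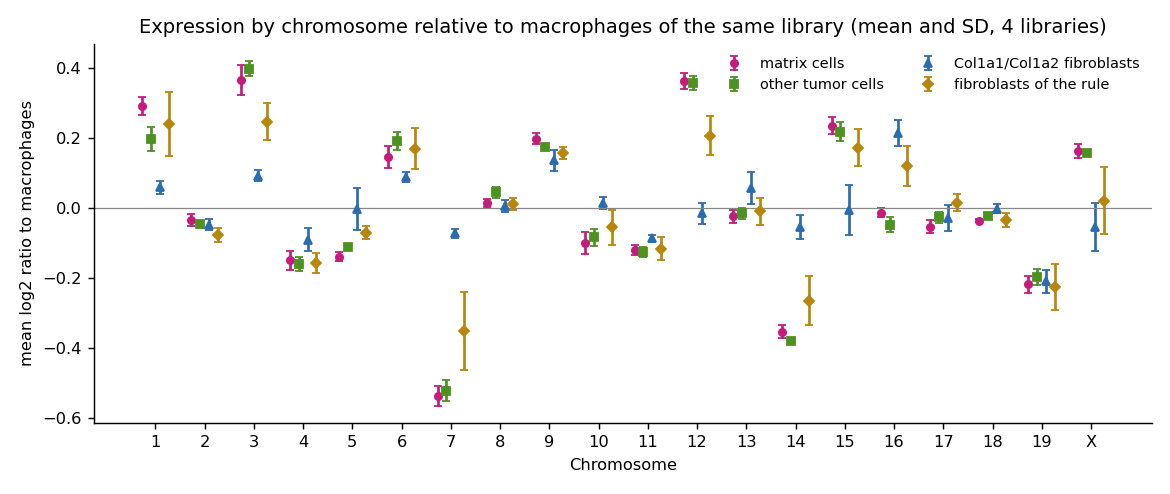
Mean log2 ratio of expression to macrophages of the same library (vertical axis) for each chromosome (horizontal axis) in matrix cells, other tumor cells, fibroblasts of the rule and collagen I fibroblasts; points are means and bars SDs of 4 libraries. Matrix cells and other tumor cells lie together on chromosomes 3, 7, 12 and 14, where fibroblasts of the rule lie nearer to 0 and collagen I fibroblasts nearest.

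Matrix cells were compared with other tumor cells over all genes, to find what cells with Lum, Islr and Fbn1 share besides these. UMIs were summed per library and population and tested with edgeR's quasi-likelihood test with the library as a block and Benjamini-Hochberg adjustment. Of 12512 genes tested, 3041 were higher in matrix cells (24.3%) and 2832 lower (22.6%), and the median log2 fold change over all was 0.01. The counts of gene lists in this comparison stand against these shares of 24.3% and 22.6%. At least 2-fold differences were fewer, with 274 genes higher (2.19%) and 140 lower (1.12%). Without the library as a block, 533 were higher and 269 lower.

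Small leucine-rich proteoglycans, which bind collagen fibrils, were higher in 5 of 6 tested members and lower in 0 (median log2 fold change 1.88). Dcn, which encodes decorin and is related to lumican, was at 216, 637, 311 and 476 CPM in matrix cells and at 24.4, 73.2, 33.5 and 89.0 CPM in other tumor cells. Every matrix sum exceeded every sum of other tumor cells, and the log2 fold change was 3.00 (SE 0.11, adjusted p = 3.75e-09, edgeR). Aspn, which encodes asporin, was scarcer, at 11.8, 11.04, 12.98 and 5.58 CPM against 0.794, 1.65, 2.19 and 0.842 CPM, a log2 fold change of 2.92. Ogn (osteoglycin) rose by 1.31 on the log2 scale and Podnl1 did not pass the test.

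Fibrillar and associated collagens were higher in 11 of 13 tested members and lower in 1, with a median of 0.81. Col3a1, the collagen III gene whose promoter is printed above, was at 1937, 2576, 2198 and 2064 CPM in matrix cells and at 687, 979, 794 and 996 CPM in other tumor cells, without overlap (log2 fold change 1.39, SE 0.06, adjusted p = 2.41e-08, edgeR). Col5a2, a chain of collagen V that sits inside collagen fibrils, was at 219.7, 299, 196 and 228 CPM against 62.3, 87.5, 62.1 and 85.2 CPM, a log2 fold change of 1.70. Col1a1 itself was higher by 2.35 on the log2 scale, at the low levels given above against 1.80, 2.72, 7.28 and 3.10 CPM in other tumor cells. Few cells carried it, as a Col1a1 UMI was present in 1.77%, 1.76%, 4.58% and 4.05% of matrix cells, and 1 cell held 42 of the 55 UMIs in NT and 1 cell 248 of the 510 in RT2. The beaded-filament chains Col6a1, Col6a2 and Col6a3 rose by 0.75, 0.81 and 0.72. Col8a1, a short-chain collagen, had a log2 fold change of -0.63, at 25.8, 7.90, 11.1 and 7.44 CPM in matrix cells against 23.8, 18.7, 20.3 and 11.4 CPM, and was lower in the RT libraries but not in NT.

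Elastic fiber and microfibril genes other than Fbn1 were higher in 8 of 12 tested members and lower in 0 (median 0.52). Eln, the elastin gene, was at 9.99, 18.8, 12.9 and 13.4 CPM in matrix cells and at 0.227, 0.802, 0.969 and 0.561 CPM in other tumor cells, a log2 fold change of 4.43 (SE 0.19, adjusted p = 1.65e-08, edgeR). The populations were far apart in every library. Ltbp3, a latent TGF-beta binding protein and the member with the most UMIs, rose by 0.31. Basement membrane genes were higher in 10 of 11 and lower in 1 (median 0.42), led by Nid1, the nidogen that links laminin to collagen IV, with 472, 568, 495 and 457 CPM against 200.2, 305, 237 and 231 CPM. Sparc, a collagen-binding glycoprotein, rose by 0.49, and Lama5, a laminin chain, fell by 0.16 on the log2 scale.

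Matricellular proteins, secreted proteins that tie cells to matrix, were higher in 11 of 14 tested members and lower in 0 (median 0.74). Fn1, the fibronectin gene, was at 1397, 1976, 1369 and 1295 CPM in matrix cells and at 302, 606, 501 and 485 CPM in other tumor cells, without overlap (log2 fold change 1.73, SE 0.10, adjusted p = 9.70e-08, edgeR). Vcan, which encodes the large proteoglycan versican, was at 233, 375, 373 and 301 CPM against 56.0, 113, 104 and 118 CPM, a log2 fold change of 1.77. Spp1, the osteopontin gene and the member with the most UMIs, rose by 0.56, and Ccn4 and Thbs2 by 1.01 and 0.78. Tnc, the tenascin C gene, rose by 2.96 from low levels, at 0.599, 4.84, 3.00 and 1.63 CPM against 0.0945, 0.365, 0.201 and 0.684 CPM, with overlap between NT matrix cells and RT3 other tumor cells.

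Enzymes that mature and degrade matrix followed. Of 20 tested genes for collagen folding and crosslinking, 11 were higher and 1 lower (median 0.26). Plod2, a lysyl hydroxylase of collagen, was at 334, 333, 301 and 308 CPM against 148, 186, 132 and 181 CPM, a log2 fold change of 1.03, and the crosslinking oxidase Loxl2 rose by 0.70. Pcolce2, an enhancer of procollagen processing, was lower at -0.99. Of 18 proteases and inhibitors, 12 were higher and 0 lower (median 0.71). Mmp2, a secreted gelatinase, was at 80.1, 189, 107 and 149.6 CPM in matrix cells and at 10.4, 31.9, 21.7 and 20.6 CPM in other tumor cells, a log2 fold change of 2.68 (SE 0.09, adjusted p = 1.79e-09, edgeR). Its sums did not overlap. Mmp14, the membrane-bound protease that activates Mmp2, rose by 1.27, Mmp3 by 2.52 and Mmp13 by 2.07. The inhibitor Timp1 was at 26.4, 32.9, 36.3 and 27.0 CPM against 26.7, 28.0, 37.8 and 32.2 CPM, and did not pass the test (0.02, adjusted p = 0.885, edgeR).

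Receptors were next. Of 16 integrins and matrix receptors, 13 were higher and 2 lower (median 0.34). Sdc2, a heparan sulfate proteoglycan of the cell surface, rose by 0.65 and Itgb1, the common beta chain of collagen and fibronectin receptors, by 0.29, while the laminin receptor chains Itga3 and Itga7 had log2 fold changes of -0.84 and -0.88. Pdgfra, a receptor for platelet-derived growth factor that fibroblasts carry, was at 151, 227, 138 and 189 CPM in matrix cells and at 62.8, 90.6, 59.6 and 85.8 CPM in other tumor cells, without overlap. Of 17 genes of the TGF-beta and BMP pathway, 9 were higher and 1 lower (median 0.29). Tgfbr3 and Tgfbr2, receptors of the pathway, rose by 0.92 and 0.62 and its target Id3 by 0.90. Tgfb1 was near the limit of detection at 2.00, 1.61, 3.21 and 2.21 CPM and did not pass the test (-0.05, adjusted p = 0.857, edgeR).

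Other receptor genes stood among the 12 named by rank as higher, of those at 50 CPM or more. Ramp2, which forms the adrenomedullin receptor, was at 44.1, 184, 336 and 101 CPM in matrix cells and at 9.13, 43.6, 84.7 and 31.4 CPM in other tumor cells, a log2 fold change of 2.02 (SE 0.07, adjusted p = 3.59e-09, edgeR). The populations overlapped across libraries because Ramp2 was lowest in NT in both, and without the library as a block it did not pass the test (adjusted p = 0.113, edgeR). Il1rl1, the IL-33 receptor, was at 99.1, 135, 54.7 and 97.9 CPM against 22.6, 39.5, 21.6 and 27.5 CPM, a log2 fold change of 1.79. Scara5, a ferritin receptor, rose by 1.58. Both lost the call when cells with a UMI of Dcn, Dpt or Pdgfra were left out, at 0.39 (adjusted p = 0.427, edgeR) and 0.80 (adjusted p = 0.412, edgeR). Selenop, the plasma selenium carrier, and Cdk15, a cyclin-dependent kinase gene, rose by 1.43 and 1.59.

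Secreted signals were higher in 19 of 26 tested members and lower in 0 (median 0.69). Fgf7, a growth factor by which mesenchyme acts on epithelium, was at 15.8, 25.8, 4.78 and 15.8 CPM in matrix cells and at 0.964, 2.36, 0.695 and 1.72 CPM in other tumor cells, a log2 fold change of 3.41 (SE 0.15, adjusted p = 2.41e-08, edgeR). The sums did not overlap. Vegfd, a lymphatic growth factor, was at 95.7, 78.4, 123 and 74.2 CPM against 25.5, 27.9, 37.7 and 30.8 CPM, a log2 fold change of 1.63. The monocyte chemokines Ccl2 and Ccl7 rose by 0.82 and 1.12 from high levels, with Ccl2 at 4771, 5156, 4586 and 5017 CPM against 2754, 3131, 2299 and 3207 CPM. Csf1, the macrophage growth factor, rose by 0.33. All 5 tested IGF binding proteins were higher (median 1.18), among them Igfbp4 at 6882, 7052, 10113 and 6759 CPM against 2741, 3189.7, 4442 and 3588 CPM. All 8 tested complement genes were higher (median 0.77), with C1s1, a protease of the classical pathway and the member with the most UMIs, at 0.73.

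Mesenchymal and epithelial genes split. Of 12 tested, 6 were higher (50%) and 4 lower (33.3%), against 24.3% and 22.6% of all genes tested. Prrx1, a homeobox factor of mesenchyme, rose by 0.91 (239, 246, 257 and 208 CPM against 119, 134, 135 and 128 CPM), Zeb1 by 0.46 and Vim, the vimentin gene, by 0.21. The simple-epithelial keratins Krt8 and Krt18 had log2 fold changes of -0.37 and -1.11, and Twist1 and S100a4 of -0.13 and -0.12. Interferon response genes were higher in 22 of 29 and lower in 1 (median 0.38), with Irf1 at 0.58 and Zbp1 at 0.91, and MHC class I genes in 8 of 14 and 0 (median 0.16).

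Genes of proliferation were lower in matrix cells. All 30 S phase genes (median -0.77) and all 30 genes of G2 and mitosis (median -0.67) were lower, against 22.6% of all genes tested. Rrm2 was at 134, 208, 88.8 and 162 CPM in matrix cells and at 311, 303, 266 and 289 CPM in other tumor cells, without overlap (log2 fold change -1.002, SE 0.12, adjusted p = 4.17e-05, edgeR). Uhrf1 was at 64.5, 64.7, 42.9 and 64.9 CPM against 156, 107, 112 and 124 CPM, a log2 fold change of -1.04. Mki67, the Ki-67 proliferation marker, was at 65.9, 47.9, 19.9 and 45.2 CPM against 113, 75.5, 52.7 and 72.4 CPM, where the highest matrix sum, that of NT, exceeded the RT2 sum of other tumor cells (-0.84). The other cell cycle genes named by rank were Spc24 of the kinetochore (-1.15), Prim1 of DNA primase (-0.99), the helicase subunit Mcm5 (-0.94), the PCNA-binding Pclaf (-0.93) and thymidylate synthase Tyms (-0.92).

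The remaining genes named by rank as lower, among those at 50 CPM or more, follow. Psat1 and Phgdh, enzymes of serine synthesis, had log2 fold changes of -0.96 and -0.91, and the mitochondrial folate enzyme Mthfd2 of -1.01. Phgdh was at 51.3, 45.6, 49.9 and 56.7 CPM in matrix cells and at 82.6, 90.3, 123 and 93.7 CPM in other tumor cells, without overlap. Fdps, an enzyme of isoprenoid synthesis, and the phosphatase Dusp9 were at -0.91 and -0.93. Without the library as a block, Fdps did not pass the test (-0.87, adjusted p = 0.0676, edgeR). Of 21 hypoxia and glycolysis genes, 5 were higher (23.8%, near the 24.3% of all genes tested) and 10 lower (47.6%, against 22.6%). Their median was -0.14, with Pgk1 at -0.40 and Car9 at -1.39. Of 26 p53 target genes, 6 were higher (23.1%, against 24.3% of all genes tested) and 9 lower (34.6%, against 22.6%), with a median of -0.00. Cdkn1a, the p21 gene, was at 12.6, 30.0, 23.1 and 27.5 CPM against 19.7, 44.6, 40.3 and 34.9 CPM (-0.56), lower within each library though the ranges overlapped, Gdf15 was at -1.14, and the antiproliferative Btg2 rose by 0.69.

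**Figure D4:**
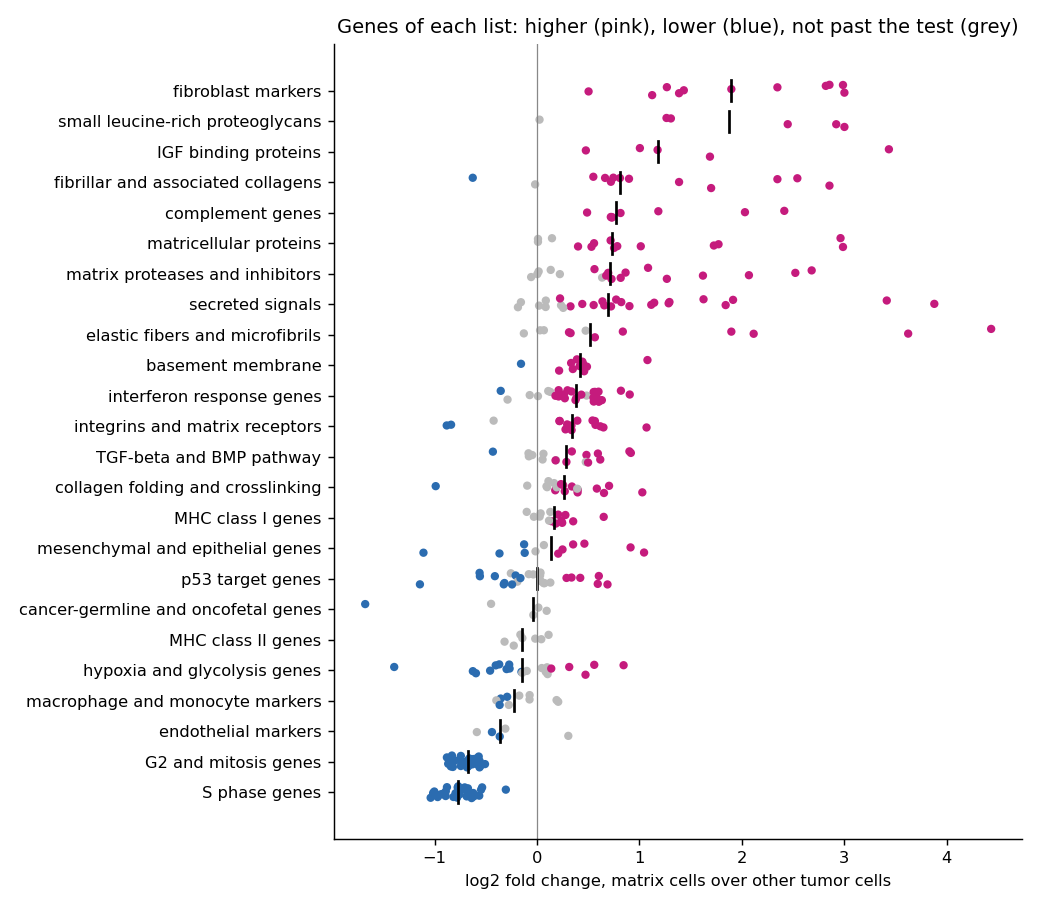
log2 fold change of matrix cells over other tumor cells (horizontal axis) for each tested gene of 24 lists with at least 5 tested genes; pink points were higher and blue points lower at an adjusted p under 0.05, grey points did not pass, and black bars are list medians. Matrix lists lie to the right, with medians up to 1.88 for small leucine-rich proteoglycans, and the S phase and the G2 and mitosis lists lie to the left, at -0.77 and -0.67.

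Markers of other cells were read beside these differences. All 11 tested fibroblast markers were higher in matrix cells (median 1.90), a list that shares Dcn, Col1a1, Col1a2, Col3a1, Postn and Mfap5 with the matrix lists. Summed over its 15 genes the list was at 3038, 4531, 3723 and 4004 CPM in matrix cells and 1075, 1640.2, 1392 and 1816 CPM in other tumor cells, with Col3a1 as the gene with the most UMIs, and with Pi16, Clec3b, Postn and Tagln at 0 in matrix cells of NT. Macrophage and monocyte markers were lower in 3 of 10, endothelial markers in 2 of 5 and pericyte markers in 1 of 2, against 22.6% of all genes tested, and higher in 0 of each, against 24.3%. Of 4 tested T and NK cell markers 1 was higher, the granzyme gene Gzma (1.15, at under 4 CPM and higher in 2 of 4 libraries), and 0 were lower (median 0.25), and of 4 neutrophil markers 1 was lower and 0 higher. No doublet caller was run. Without tumor cells holding a UMI of Dcn, Dpt or Pdgfra, 813 genes were higher and 1006 lower, and the part of RNA from fibroblasts in the differences of the other matrix genes was not tested.

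The matrix genes were graded over tumor cells with the number of Lum, Islr and Fbn1 UMIs, with no step at the limit of 3. Tumor cells were split into 15901 with 0, 6050 with 1 or 2, 2078 with 3 to 5, 1051 with 6 to 9 and 1038 with 10 or more. In this order Dcn was at 40.9 ± 24.3, 87.8 ± 48.4, 189.6 ± 78.6, 405 ± 179.8 and 825 ± 246 CPM (mean ± SD, n = 4 libraries). Col3a1 was at 733 ± 142, 1169.7 ± 165, 1783 ± 184, 2253 ± 149.5 and 2985 ± 241 CPM. Fn1 was at 366 ± 110.3, 725 ± 136, 1144 ± 233, 1542 ± 227 and 2287 ± 496 CPM. All 3 genes thus climbed at each step, and Mmp2 and Vcan did so as well, from 14.9 to 240.2 CPM and from 78.2 to 423 CPM. Rrm2 ran the other way, at 314 ± 13.5, 241 ± 25.6, 158 ± 57.8, 149 ± 64.0 and 133 ± 36.1 CPM, and Mki67 ranged from 83.3 to 35.5 CPM. Rhox5, of which every class had to hold 3 UMIs, went from 1300.3 ± 108 to 1099 ± 191 CPM. Col1a1 was at 3.28 ± 3.85 CPM in the first class and 47.2 ± 31.4 CPM in the last, which is far under the collagen I fibroblasts. These classes were set by counts, and depth was not made equal between them.

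**Figure D5:**
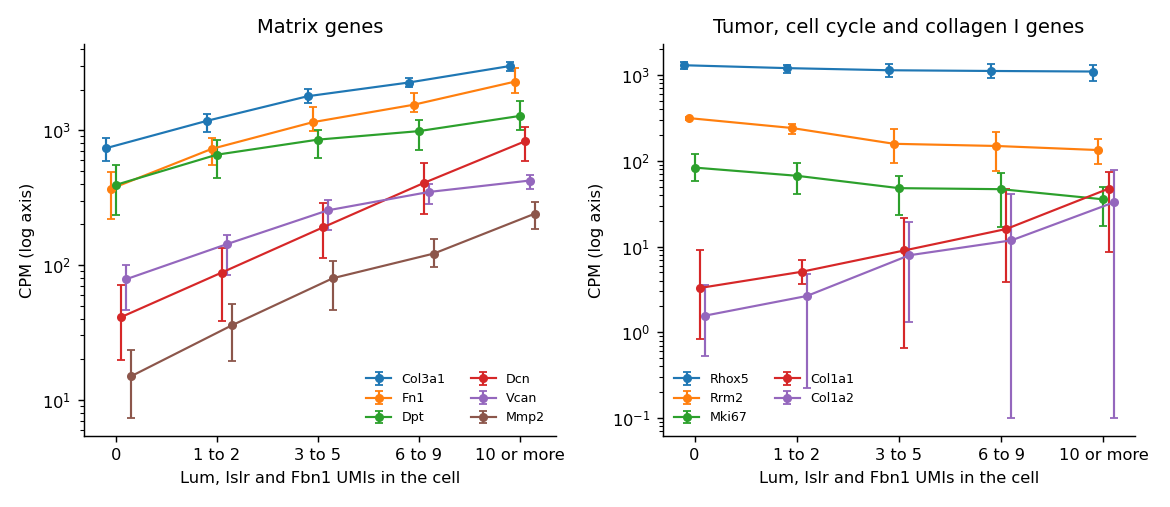
Mean level (CPM, log axis) of matrix genes (left) and of tumor, cell cycle and collagen I genes (right) in tumor cells grouped by their UMIs of Lum, Islr and Fbn1 together (horizontal axis); points are means of 4 libraries and bars span the lowest to the highest library, with 0 drawn at 0.1. Dcn climbs from 40.9 to 825 CPM, Rrm2 declines from 314 to 133 CPM and Rhox5, a rule gene, goes from 1300.3 to 1099 CPM.

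Matrix cells with Lum differed from those taken for Islr or Fbn1 alone. Lum was detected in 200 of 453, 1066 of 1305, 941 of 1594 and 516 of 815 matrix cells of NT, RT1, RT2 and RT3. Dcn was at 417, 739, 472 and 686 CPM in the cells with Lum and at 86.4, 183, 93.3 and 141 CPM in those without it. Mmp2 was at 153, 209.8, 134 and 177 CPM against 33.2, 98.6, 70.7 and 105 CPM. Both genes were higher with Lum in all 4 libraries, and the sums of Dcn did not overlap. Fn1 was at 2036, 1980.1, 1632 and 1433 CPM with Lum against 986, 1959.7, 1014 and 1075 CPM without it, higher in NT, RT2 and RT3 and hardly different in RT1, and Pdgfra hardly differed in RT2 (139 against 136 CPM). Rhox5 was at 921, 1359, 1155 and 1141 CPM with Lum and at 936, 1214, 1079 and 1057 CPM without it.

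Matrix cells were set against fibroblasts to see where the populations part. The fibroblast rule (Dcn and Col3a1 at least 3 UMIs each, Rhox5 at most 2, no Ptprc or Csf1r) took 364 cells, but only 167 of them held at least 10 UMIs of Col1a1 and Col1a2, with 5 of 26 in NT, 25 of 106 in RT1, 65 of 92 in RT2 and 72 of 140 in RT3. Rhox5 was at 201, 249.7, 90.9 and 151 CPM in cells of the rule and at 41.5, 43.0, 35.4 and 49.3 CPM in the 184 collagen I fibroblasts, so that the rule also took Rhox5-low cells with little collagen I. Of 10056 genes tested with edgeR, 705 were higher (7.01%) and 1103 lower (11%) in matrix cells than in cells of the fibroblast rule, and at least 2-fold 250 (2.49%) and 785 (7.81%). Against the collagen I fibroblasts, an alternative added after the data were seen, 1532 were higher, of which 537 were among the 705. The first count rested on single libraries, with 276 higher and 712 lower without RT3 and 419 higher without RT1.

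Cycling genes were higher in matrix cells than in fibroblasts. Of 30 genes of G2 and mitosis 28 were higher and 0 lower (median 1.70, against 0.04 over all genes tested), and of 29 S phase genes 23 were higher and 0 lower (median 1.56). Rrm2, lower in matrix cells than in other tumor cells, was at 134, 208, 88.8 and 162 CPM against 12.9, 29.9, 21.7 and 29.6 CPM in fibroblasts (log2 fold change 2.42, SE 0.21, adjusted p = 3.35e-06, edgeR). Top2a, the replication topoisomerase, was at 330.1, 301, 121 and 259 CPM against 38.8, 66.2, 26.0 and 81.7 CPM (2.00). The sums of these genes did not overlap, and the mean levels in matrix cells lay between those of fibroblasts and other tumor cells. The 12 genes named by rank as higher, among those at 50 CPM or more in matrix cells, were genes of replication and mitosis. Besides Rrm2 and Top2a they were Kif23 (2.69), Pclaf (2.55), Tk1 (2.46), Birc5 (1.97), Ube2c (1.95), Cenpa (1.90), Stmn1 (1.89), Plk1 (1.89), Tpx2 (1.84) and Nuf2 (1.76). Against the collagen I fibroblasts Tk1 did not pass the test (0.69, adjusted p = 0.202, edgeR).

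The genes named by rank as lower in matrix cells than in fibroblasts were mostly near 0 in matrix cells. Other genes called lower, such as Fn1 and Sparc, were abundant in matrix cells. Cxcl14, a fibroblast chemokine, was at 0, 0.170, 0 and 0 CPM in matrix cells and at 110, 83.2, 106 and 256 CPM in fibroblasts. Fst, which encodes the activin antagonist follistatin, was at 0, 0.170, 0.105 and 0.581 CPM against 207, 70.4, 405 and 180.3 CPM. Ccn2, the connective tissue growth factor gene, was at 0, 0.170, 0.105 and 0.232 CPM against 246, 53.4, 147 and 80.3 CPM. Penk, Tmem100, Srpx, Vgll3, Irx1, Chl1, Grb10 and Serpinb2 showed the same near-absence, at no more than 1.198 CPM in any matrix sum, and their fitted fold changes depend on the prior count and are not given. Fibrillar and associated collagens were lower in 12 of 13 tested members, small leucine-rich proteoglycans in 5 of 6 (Dcn, Lum and Col3a1 were not read, as rule genes), complement genes in 8 of 9 and interferon response genes in 20 of 28, with 0 higher in each. In these 4 lists matrix cells thus stood above other tumor cells and under fibroblasts in most members. Spp1, Vcan and Ccn4, matricellular genes that were higher than in other tumor cells, did not pass the test against fibroblasts.

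Within matrix cells, RT libraries were compared with NT by size alone. Of 10815 genes with at least 20 UMIs in NT or on average in RT, 225 (2.08%) had a log2 ratio of at least 1 in all 3 RT libraries, with 0.5 UMIs added to each sum, and 25 (0.231%) of at most -1, and medians over all genes were -0.01, -0.08 and -0.06. This excess of higher genes varied with the minimum, which a gene can pass through the deeper RT sums alone. At a minimum of 1 UMI 538 were higher and 464 lower. At a minimum above 20 UMIs, given at the end, more genes were again higher than lower. That minimum too can be passed through the deeper RT sums alone, so it cannot decide whether the excess comes from the filter. With RT3 left out 457 were higher and 59 lower, and 69 were lower without RT2 and 40 without RT1. Cyp51, a sterol demethylase, had 179.8 CPM in NT (exact Poisson 95% interval 168 to 192), whereas the RT libraries had 73.6, 29.5 and 62.1 CPM. Insig1 and Msmo1, a regulator and an oxidase of the same pathway, had 109.6 CPM against 45.8, 31.7 and 48.4 CPM and 164 CPM against 76.2, 38.7 and 65.0 CPM. All 3 were lowest in RT2. Insig1 and Msmo1 were chosen for their abundance, 50 CPM or more, after their values were seen. In other tumor cells Cyp51 stood at 273 CPM in NT and at 93.7, 55.6 and 96.7 CPM in RT.

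Vcam1, an adhesion receptor for leukocytes, had 238 CPM in NT matrix cells against 80.4, 94.5 and 94.96 CPM in the RT libraries, while other tumor cells had 106 CPM against 48.9, 55.0 and 57.5 CPM. Rgs16, a regulator of G protein signaling, was at 56.7 CPM against 16.7, 11.6 and 21.3 CPM. Both genes were named for the size of their ratios in all 3 RT libraries. Pkp2, Aldoc, Icosl, Ccdc36, Cacna1a and Zfp599, also named as lower, had between 4.99 and 24.4 CPM in NT and between 1.10 and 9.25 CPM in RT.

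Of the 10 genes named as higher in RT, 9 had 0 UMIs in matrix cells of NT, where 3 UMIs, the floor, equal 0.599 CPM. All 10 passed the minimum through their RT sums alone. Serping1, the C1 inhibitor gene of complement, was at 2.55, 5.15 and 9.88 CPM in RT, at least 4.25-fold, 8.60-fold and 16.5-fold higher. Folr2, Msr1 and Itgam, genes of macrophages, and Mtfp1, Tubd1, Gda, Fndc7 and Rnase4 were at 0 in NT and at most 4.16 CPM in RT, except for 4.998 CPM of Rnase4 in RT3. Against the NT floor, Folr2 was at least 1.75-fold higher in RT3, and Fndc7 and Rnase4 at least 1.84-fold and 1.70-fold in RT1, which is under 2-fold. Pf4, the last, had 1 UMI in NT (0.1997 CPM, interval 0.00506 to 1.11) and 3.65, 5.94 and 2.56 CPM in RT. Other tumor cells held Folr2 at 0.699 CPM in NT and 2.99, 3.13 and 2.03 CPM in RT.

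Macrophage markers moved with these genes. Summed over 10 markers matrix cells held 26.0 CPM of them in NT against 93.9, 143 and 73.1 CPM in the RT libraries, and other tumor cells 30.7, 129, 154 and 100.4 CPM. Of 9 markers read, Lyz2 alone had at least 20 UMIs in NT. The others passed the minimum through their RT sums alone, so a count of them past a ratio cannot decide. Of the others, C1qa, Tyrobp and Mrc1 had 0, 1 and 2 UMIs in NT. Lyz2, the marker with the most UMIs, was at 11.4 CPM against 54.8, 69.9 and 34.2 CPM. C1qa was at least 1.56-fold, 4.21-fold and 1.16-fold higher in RT1, RT2 and RT3 than the NT floor, which is under 2-fold in RT1 and RT3. The chemokine genes Ccl8 and Ccl5 were at 1.598 CPM against 19.95, 16.8 and 8.14 CPM and at 3.79 CPM against 28.6, 29.7 and 20.1 CPM. Both also passed the minimum through their RT sums alone. In macrophages themselves Lyz2 stood at 19040.4, 27057, 22531 and 24439 CPM. The part of macrophage RNA in the RT values was not tested.

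Among genes with a mean of 50 CPM or more, 29 were taken as higher in RT, and 6 genes with at least 50 CPM were taken as lower. Over all genes read, 2.08% were taken as higher and 0.231% as lower. The number of genes at 50 CPM or more is not given, so these counts cannot be set against those shares. Lgals3bp, a secreted glycoprotein, was at 28.6 CPM in NT and at 119.8, 156 and 94.6 CPM in RT. Ramp2, one of the 12 genes named by rank as higher in matrix cells, was at 44.1 CPM against 184, 336 and 101 CPM. The ferritin heavy chain Fth1 was at 3413.5 CPM against 7242, 8505 and 7682 CPM, and the calcium-binding S100a4 at 3241 CPM against 6978, 7375 and 6526 CPM. The same 4 genes were also higher in RT in other tumor cells, as were the early response gene Ier3 and the germline gene Rhox2h. These genes were picked for abundance after their values were seen.

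Members of the matrix lists went both ways between RT and NT within matrix cells. Lamb1, a laminin chain, was at 92.3 CPM in NT against 327, 204 and 171 CPM, Col8a1 at 25.8 CPM against 7.90, 11.1 and 7.44 CPM, and Dcn at 216 CPM against 637, 311 and 476 CPM. Medians of the log2 ratios of RT1, RT2 and RT3 were -0.13, -0.16 and 0.05 over 13 fibrillar and associated collagens, 0.00, 0.07 and -0.05 over 11 basement membrane genes and 0.27, 0.20 and 0.21 over 16 proteases and inhibitors. The 5 small leucine-rich proteoglycans read had -1.05, 0.13 and -0.67. Fibroblast markers had medians of 0.59, 0.54 and 1.14 over 11 genes, with 3 taken as higher once 0.5 UMIs are added (Col1a2, Postn and Mfap5) and 0 as lower. These 3 had 4, 0 and 1 UMIs in NT. They passed the minimum through their RT sums alone, so their count past a ratio cannot decide. Postn in RT1 was at 0.340 CPM and so under the NT floor of 0.599 CPM, and 1 cell of RT2 held 81 of its 99 Postn UMIs. The part of fibroblast RNA in the values of matrix genes was not tested. Lum was at 215 CPM against 742, 348 and 363 CPM, Fbn1 at 238 CPM against 202, 189.9 and 173 CPM. Of 25 p53 target genes, 2 were taken as higher and 0 as lower, against 2.08% and 0.231% of all genes read. The nuclease gene Aen was at 5.39 CPM against 15.8, 14.3 and 12.9 CPM. Plk2, the other, was at 1.198 CPM against 5.01, 6.57 and 3.02 CPM. It passed the minimum through its RT sums alone, so the count of 2 cannot decide. Of the 25 genes, 9 were above NT in all 3 RT libraries and 9 were below it in all 3. Cdkn1a was at 12.6 CPM against 30.0, 23.1 and 27.5 CPM and Mdm2 at 58.7 CPM against 79.2, 66.9 and 90.3 CPM. Tnfrsf10b, a death receptor gene, was at 51.1 CPM against 24.9, 25.4 and 27.5 CPM.

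RT libraries differed among themselves in interferon and cell cycle genes. The median log2 ratio to NT of 28 interferon response genes was -0.10 in RT1, 1.01 in RT2 and 0.14 in RT3. For 30 genes of G2 and mitosis it was -0.01, -1.06 and 0.07, and for 30 S phase genes 0.38, -0.59 and 0.05. RT2 stood apart from RT1 and RT3 in all 3 lists, and it is also the library whose table was listed differently and was the deepest. Mki67 showed this in matrix cells, with 65.9 CPM in NT, 47.9 in RT1, 19.9 in RT2 and 45.2 in RT3.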

How the data were processed

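Cells of s.c. LLC tumors were profiled by single-cell RNA sequencing with a SeekOne MM kit, and the authors deposited UMI counts per gene and barcode, raw and not normalized, as whole numbers for 1 NT and 3 RT libraries. The submitters' processing notes name STAR 2.5.1b, featureCounts (Subread 1.6.4) and Cell Ranger, with the mouse builds GRCm39 and mm39, without their roles. All columns of counts were mapped to a library.

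Counts were joined on gene symbol. Tumor cells, fibroblasts and macrophages were taken by the UMI rules given with the results, with no clustering and no doublet caller. Counts were summed per library and population and tested with edgeR 4.0.16 (limma 3.58.1, R 4.3.3) after its filter on low counts, with TMM scaling, a quasi-likelihood fit, the library as a block and Benjamini-Hochberg adjustment at 0.05. The block pairs populations of the same library, since both come from the same tumors. The p-values thus measure how the difference between populations of a library varies over the 4 libraries, of which NT is a pool. They do not measure the spread between libraries. The fit was tested on simulated data. A small set of genes was changed, the spread was fixed, and both populations of a library were given the same library effect. The rates that follow belong to that setting and need not hold for the real sums. Against other tumor cells, 98% of log2 changes of 1 and 88% of those of 0.5 were recovered, and 7% of calls fell on unchanged genes. Against fibroblasts these values were 98%, 55% and 5.56%. Libraries of RT and NT were compared as log2 ratios of CPM with 0.5 UMIs added, with no test. Intervals are exact 95% intervals and cover counting error only. Chromosome profiles used genes of at least 20 CPM, 10 CPM added to each level and ratios limited to 3. Gene positions by chromosome came from a GENCODE annotation and promoter sequences from RefSeq, GRCm38.p6, neither of which is the build of the counts. Promoters of Lum, Dcn, Mmp2, Ramp2, Fn1, Col5a2, Scara5, Spc24, Dusp9 and Fdps were not used here.

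The named genes were the 12 with the largest fold change in each direction among those past the test with at least 50 CPM in the higher population and the same sign in all 4 libraries, list members with the largest change or most UMIs, and for RT against NT the 10 in each direction with the largest smallest ratio over the RT libraries. Other genes were named after their values were seen. Some genes that met these rules are not reported here. Members and gene lists were chosen with earlier results of these data known. Alternatives were DESeq2 1.42.0, other count filters, no block, thinning, other UMI and mitochondrial limits, cells left out by stromal genes or by the highest 5% of UMIs, and each library left out. Python 3.11.15 with NumPy 2.4.6, SciPy 1.17.1, pandas 2.3.3 and Matplotlib 3.10.9 was used.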

Additional observations from a re-analysis of the deposited data

Results flagged for a closer look

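The sign of the difference between matrix cells and other tumor cells was opposite in NT to that in all 3 RT libraries for 2 gene lists and, among list members that passed the test over all libraries and had over 3 UMIs in NT, for 3 genes. These differences between NT and RT were not tested, as NT is 1 library. MHC class II genes, which present antigen to helper T cells, had a median log2 ratio of 0.15 in NT, whereas the RT libraries gave -0.51, -0.06 and -0.39. Cancer-germline and oncofetal genes had a median of 0.07 in NT against -0.03, -0.15 and -0.04 in RT. Egln3, an oxygen-sensing prolyl hydroxylase gene, had a log2 ratio of 0.02 in NT and values under 0 in each RT library. Col8a1, a short-chain collagen gene, had 0.11 in NT and values under 0 in each RT library. P3h1, a prolyl hydroxylase of collagen, had -0.03 in NT and values above 0 in each RT library. Further list members that did not pass the test, such as Fbln2 and Igf2bp2, also had opposite signs in NT and RT.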

How the results depend on the processing

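Matrix against other tumor cells (3041 higher, 2832 lower): with no replicate block, that is without pairing populations of a library, 533 were higher and 269 lower. Thinning gave 1916 higher, and leaving out cells with Dcn, Dpt or Pdgfra gave 813 and 1006. Leaving out 1 library gave 2288 to 2691 higher and 2285 to 2653 lower.

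Matrix cells against fibroblasts (705 higher, 1103 lower): 430 were higher with DESeq2, 295 with no replicate block, 1578 with fibroblasts without Rhox5 and 1532 with collagen I fibroblasts, the last chosen after seeing the data. Without the filter on low counts 1181 were higher and 1702 lower, after thinning 287 and 525, and without cells with Dcn, Dpt or Pdgfra 310 and 561. Leaving out 1 library gave 276 to 740 and 712 to 1182.

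The RT minus NT share of 11.4 percentage points was 1.93 without cells with Dcn, Dpt or Pdgfra and 8.13 to 15.4 with 1 RT library left out. Of genes within matrix cells, 110 were higher and 10 lower in RT at a minimum of 100 UMIs, 538 and 464 at 1 UMI, and 60 were higher without cells with Dcn, Dpt or Pdgfra. Leaving out 1 RT library gave 243 to 457 and 40 to 69. No paired analysis was made, since NT was 1 pool of 3 tumors and no label pairs it with an RT tumor. In windows of 100 genes the profile correlation was 0.982 with other tumor cells, 0.928 with fibroblasts of the rule and 0.54 with collagen I fibroblasts, against 0.986, 0.947 and 0.489 over chromosomes. The causes were not tested.

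The genes named by rank were counted once for each alternative, and they are those with the largest changes. Of these values, 355 against other tumor cells kept their direction and side of the threshold and 4 no longer passed, and against fibroblasts 249 and 4. List members not named by rank, many with smaller changes, were not in these counts. Of RT ratios, 14 of 158 moved by more than the spread. None changed sign. The NT sums of 453 matrix cells and 10 collagen I fibroblasts limit what low genes can show.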
